A study of Mus musculus with 48 samples.

Results

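The translation initiation factors (gene symbols beginning Eif and a digit) and elongation factors (Eef and a digit) were followed through 48 mouse RNA libraries in 15 groups. The members were taken by symbol alone: 69 of the 54331 genes in the tables matched, after 10 pseudogene symbols ending in -ps were left out. Of the 69, 68 are annotated as protein coding. The exception, Eif2c5, is a lincRNA that matched the naming rule and no more. All libraries concern retinal ganglion cells (RGCs), the neurons whose axons form the optic nerve and end in a midbrain target, the superior colliculus (SC), and a thalamic one, the lateral geniculate nucleus (LGN).

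In EU-labelled libraries, ethynyl uridine was injected into the vitreous of the eye, so that cells there incorporate it into new RNA. Labelled RNA was then captured from SC tissue of 3 animals per library. Axon-TRAP (translating ribosome affinity purification) takes RNA through a tagged ribosome, here from the target region; the promoter that drives the tag is not given in the sources used here. Wild-type, naive (not axotomized) groups were SC EU at P10 (n = 3), P10 with a 4 d chase (n = 3), P14 (n = 5) and 8 weeks (n = 3), LGN EU at P14 (n = 2), SC TRAP at P10 (n = 3) and P14 (n = 5), and LGN TRAP at P14 (n = 3). The wild-type, naive eye groups, all at P14, were EU-labelled immunopanned RGCs (n = 3), immunopanned RGCs without EU (n = 3) and RGCs sorted by FACS (n = 3). Groups labelled fmr1ko at P14, naive, were SC EU, SC TRAP and eye FACS (n = 3 each). The group labelled sarm1ko was SC EU at P14 with a 7 d chase (n = 3), and it is the only axotomized group, so genotype, axotomy and chase cannot be told apart in it.

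Initiation begins when the eIF4F complex binds the mRNA cap: Eif4e is the cap-binding protein, Eif4g1 and Eif4g3 are scaffolds, and Eif4a1 and Eif4a2 are RNA helicases, while the 4E-binding proteins (Eif4ebp1 to Eif4ebp3) hold Eif4e away from the scaffold until mTORC1 phosphorylates them. The eIF2 ternary complex brings the initiator tRNA, the multi-subunit eIF3 complex joins the small ribosomal subunit to the mRNA, and Eif1, Eif1a and Eif5 act in start codon recognition. The eIF2 kinases (Eif2ak1 to Eif2ak4) phosphorylate eIF2 under stress and so block its exchange factor, eIF2B. In elongation, eEF1A delivers aminoacyl-tRNA and Eef2 moves the ribosome along, and Eef2k inhibits Eef2 by phosphorylation. Axons of RGCs are known to translate mRNAs locally, far from the cell body.

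The 69 members fell by role into 14 eIF3 genes, 13 genes of start codon recognition and the ternary complex, 12 of eIF4F and its helicases, 7 elongation factors, 6 kinases and methyltransferases of elongation factors, 5 eIF2B subunits, 4 eIF2 kinases, 4 4E-binding proteins, 3 genes of eIF5A and eIF6, and Eif2c5. Base composition is shown first because several results below moved with it. The members' transcripts ranged from 38.8% to 60.6% G or C, with a median of 50.1%, against a median of 49.4% over 21803 protein-coding genes. The middle 90 coding bases of 4 members that recur below, from GENCODE M21 on mm10, are printed with every G and C in capitals. Eif3e (chr15:43250058-43282719, minus strand) and Eif2s1 (chr12:78861819-78887010, plus strand) stand for the A- and T-rich members, with 40.0% and 41.1% G or C in these stretches. Eif3g (chr9:20894349-20898623, minus strand) and Eef2 (chr10:81176631-81182498, plus strand) stand for the G- and C-rich members, with 53.3% and 58.9%.
Eif3e: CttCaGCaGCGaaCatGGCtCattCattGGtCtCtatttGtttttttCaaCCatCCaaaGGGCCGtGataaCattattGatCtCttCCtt
Eif2s1: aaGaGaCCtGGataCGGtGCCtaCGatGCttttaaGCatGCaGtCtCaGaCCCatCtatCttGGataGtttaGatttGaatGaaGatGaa
Eif3g: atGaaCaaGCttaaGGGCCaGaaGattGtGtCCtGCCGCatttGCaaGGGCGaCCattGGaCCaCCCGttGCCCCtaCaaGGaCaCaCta
Eef2: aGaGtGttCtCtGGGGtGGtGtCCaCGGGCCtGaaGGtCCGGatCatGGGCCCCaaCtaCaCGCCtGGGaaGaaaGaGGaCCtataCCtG

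The pair Eef1a1 (chr9:78478449-78489151, minus strand) and Eef1a2 (chr2:181147653-181157014, minus strand), which encode near-identical forms of eEF1A, differed in the libraries and differs in composition. Eef1a1 is the ubiquitous form, and Eef1a2 is the form of mature neurons and muscle. Over 1386 aligned coding bases they are 80.1% identical, and the third codon position is G or C in 52.0% of codons in Eef1a1 and in 72.8% in Eef1a2. In the first 120 coding bases, capitals mark the 18 bases that differ, all 18 of them at the third codon position. Eef1a2 has G or C at 13 of the 18 and Eef1a1 at 6.
Eef1a1: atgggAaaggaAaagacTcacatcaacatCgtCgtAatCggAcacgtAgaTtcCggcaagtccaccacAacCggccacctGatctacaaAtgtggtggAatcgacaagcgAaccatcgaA
Eef1a2: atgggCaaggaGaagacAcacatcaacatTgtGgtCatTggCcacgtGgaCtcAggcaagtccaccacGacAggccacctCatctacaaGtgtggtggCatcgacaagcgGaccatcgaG

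Eif4g2 (chr7:111067750-111083030, minus strand) encodes a scaffold related to eIF4G that does not bind Eif4e and serves cap-independent initiation. It is the only coding member whose annotated coding sequence does not begin with ATG, and its first 30 coding bases are printed with the start codon in capitals.
Eif4g2: GTGgagagtgcgattgcagaagggggtgct
Many mRNAs of the translation machinery begin with a 5' terminal oligopyrimidine tract, through which mTORC1 controls them. A tract was searched as C at the annotated start followed by at least 4 bases that are C or T, on the gene's strand only. A tract that begins off the annotated base is missed, so absence here does not show that a member lacks one. Reports name 11 members with the tract, more than the search found. It was present at the RefSeq start (GRCm38 promoter windows) of 3 of 53 matched members, 5.66%, against 813 of 27025 genes, 3.01%. The members were Eif2c5, Eif2s3x (a form of the eIF2 gamma subunit) and Eif3f. The windows of both coding members, 10 bases before the start and 20 after it, are printed with the tract of 11 bases in capitals. They lie at chrX:94212632-94212661 on the minus strand and chr7:108934405-108934434 on the plus strand.
Eif2s3x: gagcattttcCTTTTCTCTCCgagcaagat
Eif3f: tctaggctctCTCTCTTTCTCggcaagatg

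Several libraries stood apart or went against their labels. Total estimated counts per library ran from 2558141 to 48263706, with a median of 22212787. SC libraries held the RGC list (15 genes) at 1867 to 5959 TPM in the wild-type P10 and P14 groups without chase. TPM is the deposited abundance, scaled for transcript length and depth. The same libraries held oligodendrocyte markers (10 genes) at 797 to 21112 TPM. Within SC EU P14 the RGC list was uneven. Thy1, Gap43 and Tubb3 stood at 638 to 3052, 768 to 1187 and 592 to 1172 TPM. Isl1, Pou4f2 and Pou4f3 stood at 0 to 0.614, 0 to 1.70 and 0.247 to 6.825 TPM. How far the summed list reflects RGC axons was not tested. In the EU-labelled immunopanned libraries the RGC list summed to 191 to 466 TPM and the rod list (14 genes) to 4746 to 108534 TPM. In the wild-type FACS libraries the same lists summed to 148 to 238 and 94949 to 183751 TPM, so the rod list exceeded the RGC list in cells labelled RGCs. Replicate 2 of the TRAP libraries labelled fmr1ko held rod markers at 107815 TPM and oligodendrocyte markers at 23.2 TPM, against its SC label. In replicates 2 and 3 of the immunopanned libraries without EU, 12 lens markers made up 312268 to 312598 TPM, and in replicate 1 the members summed to only 287 TPM; this group entered no test. The non-coding gene CT010467.1 took 27.4 to 48.5% of the counts in the sarm1ko libraries and 33.7% in replicate 5 of SC EU P14. Replicates 1 and 2 of the P14 SC groups carry another code series in their titles than replicates 3 to 5. They were used only for the comparison with LGN, and replicates 3 to 5 for all others.

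The knockout labels were checked on the targeted genes. Sarm1, whose protein drives axon degeneration, stood at 3.32, 3.22 and 2.62 CPM (counts scaled for library size) in the sarm1ko libraries and at 19.4, 42.1 and 19.9 CPM in SC EU P14, with no overlap (log2 fold change -3.15 ± 0.48, adjusted p = 0.0023, edgeR quasi-likelihood test with Benjamini-Hochberg adjustment). Fmr1, which encodes a repressor of translation, stood at 9.93, 4.91 and 13.2 CPM in the EU libraries labelled fmr1ko and at 1.22, 1.64 and 0.452 CPM in wild type. It was thus higher in every EU library labelled fmr1ko, against the label, although the test was not passed (edgeR, adjusted p = 0.069). In TRAP and FACS, Fmr1 did not separate the libraries labelled fmr1ko from wild type, so the label could not be settled there.

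Eef1a1 had the highest median level of the 69 members in all 15 groups. In SC EU P14 it stood at 5263, 4136, 1365, 1156 and 2383 TPM in replicates 1 to 5, and it made up 8.05 to 46.9% of the members' summed TPM over all 48 libraries. Eef2, the translocase, stood at 920.2, 1216, 920.1, 1049.6 and 671 TPM in the same 5 libraries. The subunits of the exchange factor that recharges eEF1A followed, with Eef1b2 at 586, 558, 825, 795 and 695 TPM and Eef1g at 382, 519.8, 442, 412 and 537 TPM. The levels of Eef2, Eef1b2 and Eef1g overlapped between these libraries, so their order in SC EU P14 is not resolved by the spread. Among initiation factors, Eif5a, whose hypusine-modified protein helps the ribosome through difficult peptide bonds, had a median of 589.5 TPM and Eif1 one of 254 TPM in SC EU P14. At the low end, Eif4e1b, the cap-binding protein of oocytes, and Eif2c5 had a median of 0 TPM in every group. The highest group median was 0.962 TPM for Eef1akmt3 and, in the 8-week group, 3.18 TPM for Eif5a2, the second eIF5A gene.

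**Figure D1:**
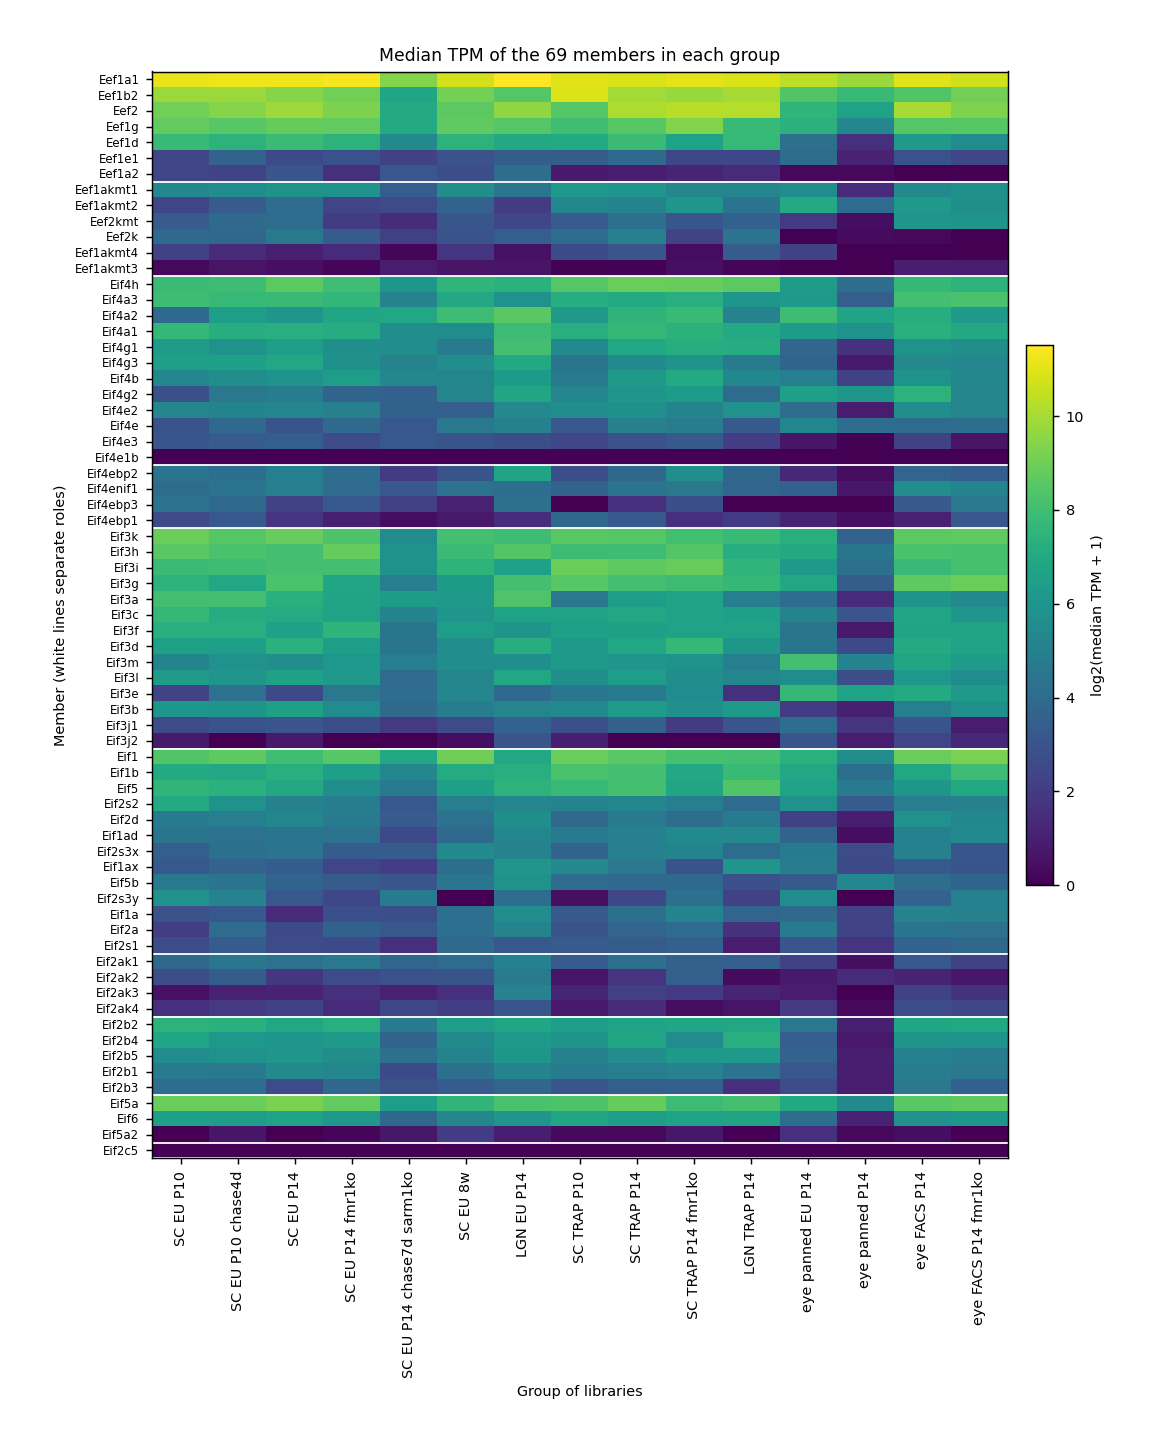
Median level of each member (rows, ordered by role and level, white lines between roles) in each of the 15 groups (columns), as log2(median TPM + 1). Eef1a1 heads every column, and the columns of the sarm1ko and immunopanned groups are darker over most rows, where the members' summed TPM was 1546 to 5699 and 287 to 2221 against 8404 to 9042 in replicates 3 to 5 of SC EU P14.

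The share of each paralog within its pair differed between groups. Eef1a2 was a small part of eEF1A mRNA everywhere: its share of Eef1a1 plus Eef1a2 was 0.526% to 0.766% in SC EU P14 (replicates 3 to 5), 0.032% to 0.0565% in SC TRAP P14 (the same replicate numbers) and 0.497% to 1.82% in the sarm1ko group. In those replicates Eef1a2 stood at 7.23, 8.03 and 18.4 TPM in EU and at 0.861, 0.888 and 0.67 TPM in TRAP. Replicates 1 and 2 had it at 6.78 and 4.13 TPM in EU and at 2.51 and 3.77 TPM in TRAP. The gap between the methods was thus far smaller in that code series. In the eye, Eef1a2 was listed at 0 in all 3 FACS libraries labelled fmr1ko and reached at most 0.0032% in the wild-type FACS libraries. It reached 0.212% in the immunopanned EU libraries and 0.53% in those without EU, the latter in replicate 1, where Eef1a1 was at only 40.04 TPM. In the helicase pair, Eif4a2 made up 3.24% to 15% of Eif4a1 plus Eif4a2 in SC EU P10 and 32% to 40.2% after the 4 d chase. In the sarm1ko group it made up 70.1% to 76.8%, and the 3 ranges do not overlap. At 8 weeks the share ran from 11.1% to 86.7%, so that group does not hold together. SC EU P14 does not either: in replicates 1 and 2 Eif4a2 stood at 366 and 202 CPM, above Eif4a1 at 172 and 187 CPM. In its replicates 3 to 5 Eif4a2 stood at 8.01, 20.7 and 84.1 CPM, below Eif4a1 at 178, 192 and 177 CPM. Eif4a1 and Eif4a2 are 78.0% identical over their aligned coding bases, with G or C at the third codon position in 57.6% and 44.4% of codons. Eif1b, a close relative of Eif1, made up 30.2% to 37.3% of the pair in SC TRAP P10 and 18.9% to 35.1% in SC EU P10. The Y-linked Eif2s3y, 86.3% identical to the X-linked Eif2s3x, was listed at 0 in all 3 libraries of the 8-week group and held 75.1% to 92.3% of the pair in SC EU P10. The sex of the animals is not in the labels and libraries pool animals, so these values are given without comparison.

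**Figure D2:**
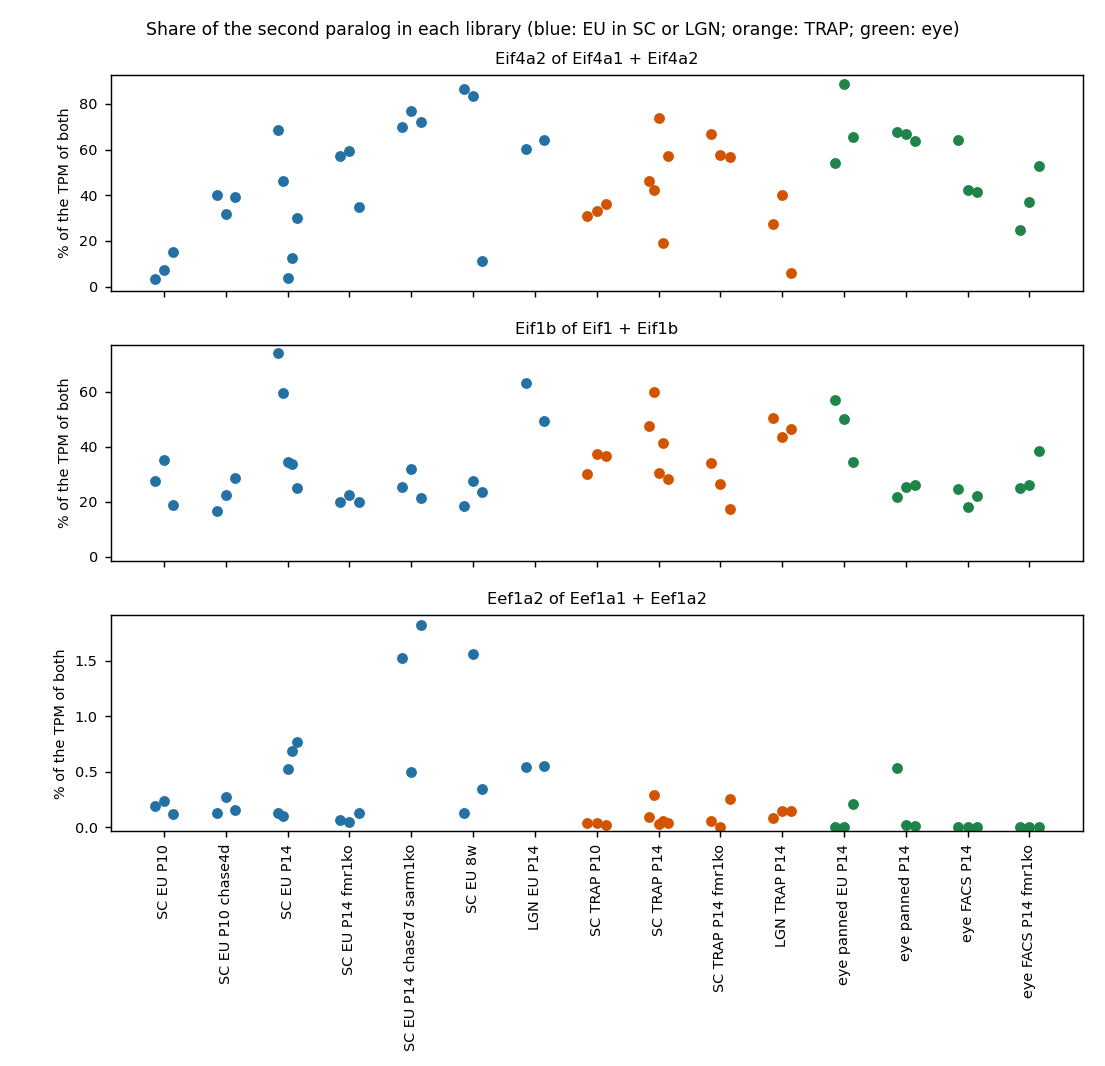
Share of the second paralog in the summed TPM of its pair, in percent, for Eif4a2 (with Eif4a1), Eif1b (with Eif1) and Eef1a2 (with Eef1a1); each point is 1 library, grouped along the horizontal axis. Eif4a2 spans 3.24% to 15% in SC EU P10 and 70.1% to 76.8% in the sarm1ko group, while Eef1a2 stays under 2% in every library.

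Fold changes of the members moved with the base composition of their transcripts in most comparisons. In EU-labelled P14 RNA, SC against immunopanned eye, Spearman's rho between log2 fold change and transcript GC content was 0.72 over the 66 members tested and 0.56 over 11799 protein-coding genes. For the sarm1ko libraries against SC EU P14 it was -0.70 over 66 members and -0.76 over 11517 genes. Between TRAP and EU at P14 it was -0.58 over 65 members and -0.27 over 11705 genes, and at P10 -0.26 and 0.12. These correlations are across genes, which share libraries and are not independent replicates. GC content weighted by TPM over all genes was 52.8 to 54% in SC EU P14 (replicates 3 to 5). It was lower in the sarm1ko group (49.1 to 50.6%) and the immunopanned EU group (47.6 to 51.6%), the direction of their correlations above. SC TRAP P14, at 53 to 53.8%, lay within the range of SC EU P14, so these libraries did not differ as a whole. Members under 46% GC supplied 3.75 to 7.16% of the members' TPM in those SC EU P14 libraries, 15 to 15.9% in sarm1ko and 15.7 to 33.6% in immunopanned EU. Each comparison below was therefore also fitted after the smooth trend of expression on transcript GC over all genes had been removed. The origin of the trend was not tested.

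**Figure D3:**
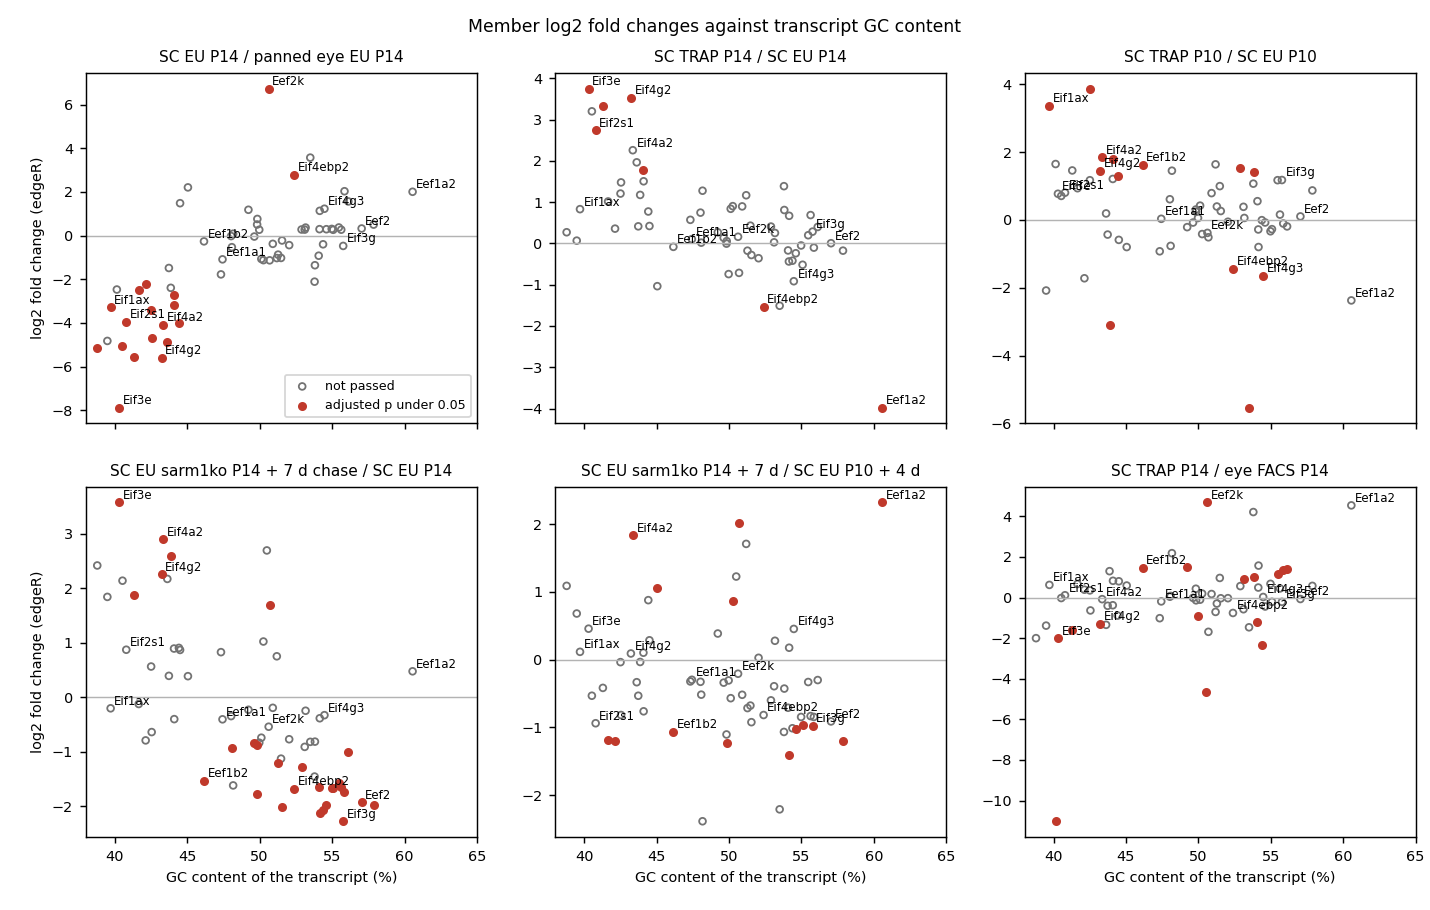
log2 fold change of each member (vertical axis) against the GC content of its transcript in percent (horizontal axis), in 6 comparisons; red points passed adjusted p under 0.05 in edgeR. In SC against immunopanned eye the members rise with GC (rho 0.72), and in sarm1ko against SC EU P14 they fall with it (rho -0.70).

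The first comparison set EU-labelled RNA in the SC against EU-labelled RNA of immunopanned cells at P14, which addresses RNA that left the cell body and RNA in the cell body. Of 66 members tested, 2 were higher and 16 lower in the SC, that is 3.03% and 24.2% of the members. Of all 15540 genes, 11% were higher and 11.4% lower, 22.4% in all. The median log2 fold change was -0.45 over the members and 0.11 over all genes. The groups did not overlap for 48.5% of the members and 46.8% of all genes. Rod markers (14 of 14 lower) and oligodendrocyte markers (9 of 9 tested higher) moved between the same groups. Midbrain neuron markers (6 of 8 tested higher, 1 lower) and lens markers (10 of 12 lower) did too. The part of these cell types in the members' values was not tested. Fewer cells of a type and less RNA per cell cannot be told apart in these bulk libraries.

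The largest share of lower calls was among start codon and ternary complex genes, with 7 of 13 lower and none higher (median log2 fold change -2.49). Eif3e, an eIF3 subunit, stood at 0.796, 0.287 and 3.93 CPM in the SC and at 311, 523 and 339.9 CPM in the eye (log2 fold change -7.88 ± 1.10, adjusted p = 0.0033, edgeR). Every eye library lay far above every SC library. Eif4g2 stood at 5.45, 2.14 and 29.1 CPM in the SC and at 349, 922 and 516 CPM in the eye (-5.61 ± 1.05, adjusted p = 0.0085). Eif3m, another eIF3 subunit, stood at 11.5, 16.1 and 32 CPM and 155, 424 and 388 CPM (-4.02 ± 0.67, adjusted p = 0.0055). The eIF2 alpha subunit Eif2s1, the target of the stress kinases, stood at 5.33, 1.92 and 2.74 CPM and 74.2, 50.3 and 29.9 CPM (-3.95 ± 0.81, adjusted p = 0.011). The cap-binding protein Eif4e stood at 0.919, 1.09 and 10.03 CPM in the SC and at 132, 114 and 150.0 CPM in the eye (-5.04 ± 1.04, adjusted p = 0.012). These 5 genes are A- and T-rich, with transcripts of 40.3%, 43.2%, 44.4%, 40.8% and 40.5% GC in the order named. The other called lower were Eif1a (-5.56), Eif5a2 (-5.15), Eif2a (-4.89), Eef1akmt2 (-4.71), Eif4a2 (-4.09), Eif3j1 (-3.42) and Eif1ax (-3.28), with Eef1e1, Eif2s3x, Eif5 and Eif2s2 between -3.18 and -2.23. Eif1a and Eif1ax share 85.7% of aligned coding bases, and Eif3j1 has a near-identical copy, Eif3j2, so reads may be split between them.

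The 2 members higher in the SC have different roles, a 4E-binding protein and the kinase of Eef2, and neither was called without replicate 3 or 4 of SC EU P14. Eif4ebp2, the 4E-binding protein prevalent in neurons, stood at 69.8, 107 and 62.2 CPM in the SC and at 8.57, 11.4 and 14.8 CPM in the eye (log2 fold change 2.78 ± 0.60, adjusted p = 0.014, edgeR). Eef2k stood at 18.1, 21.1 and 22.1 CPM in the SC, and in the eye at 0.519, 0 and 0 CPM, that is 14, 0 and 0 counts (6.73 ± 1.74, adjusted p = 0.025). The fold for Eef2k is loosely bounded because the eye level rests on 1 library. Abundant elongation factors did not pass: Eef1a1 had a log2 fold change of -1.09 ± 0.53, adjusted p = 0.17, and Eef2 one of 0.33 ± 0.52, adjusted p = 0.7. The same holds for Eef1b2 (-0.26 ± 0.53, adjusted p = 0.77), Eef1g (-0.44 ± 0.45, adjusted p = 0.53) and Eef1d (1.57 ± 0.58, adjusted p = 0.084). Among eIF4F genes, Eif4a1 (-0.53 ± 0.53), Eif4g1 (1.14 ± 0.52) and Eif4g3 (1.23 ± 0.53) did not pass, and none of the 4 eIF2 kinases did. Eef1a2, Eif4ebp1, Eif5a, Eif1, Eif3a and Eif2s3y, at log2 fold changes of 2.01, 0.09, 0.31, -0.38, 1.49 and -4.83, also did not.

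With the GC trend removed, 3 members were higher and 8 lower, 7 of them among the 18. Eif3e was at -5.31 (adjusted p = 0.0053, edgeR), Eif4g2 was at -3.72 (adjusted p = 0.016) and Eif4ebp2 at 2.34 (adjusted p = 0.027). Eif2s1 fell short of the threshold at -1.04 (adjusted p = 0.38), and Eif1ax, Eif2s2 and Eif5 changed sign, to 0.09, 0.58 and 0.38. On the log2(TPM + 1) scale, 14 members were higher and 11 lower, and the median of all genes was 1.01 in place of 0.11. Without replicate 3 of SC EU P14 the count of members called fell to 7 and without replicate 4 to 5, all lower in the SC.

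Genes that work with the factors were listed apart. Of the genes that bind the cap or the poly(A) tail, 5 of 15 tested were lower, among them Paip2b, an inhibitor of poly(A)-binding protein, at 2.51, 1.6 and 8.72 CPM in the SC and 82.7, 94.7 and 258 CPM in the eye. Of the termination and recycling genes, 3 of 9 were lower, including the release factor Etf1 (-2.96 ± 0.58) and the recycling factor Abce1 (-3.76 ± 1.0). Of the mTORC1 pathway genes, 2 of 23 were lower; of the genes for hypusine and diphthamide, 0 of 8 were called. The stress response list had 1 of 7 higher and 1 lower, Nck1, an adaptor that recruits a phosphatase to eIF2, with a log2 fold change of -9.31 ± 1.01. Of 11 members reported to carry the oligopyrimidine tract, 2 were lower and none higher.

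Ribosome-bound RNA of the SC was next compared with EU-labelled RNA of the SC. How far either capture holds axonal RNA was not tested. At P14, 5 of 65 members tested were higher in TRAP and 2 lower, that is 7.69% and 3.08% of the members. Of all 16277 genes, 5.73% were higher and 8.64% lower, 14.4% in all, so the members' share was near the background. The groups did not overlap for 33.8% of the members and 37.2% of all genes. Eef1a2 stood at 1.23, 1.43 and 0.772 CPM in TRAP and at 10.9, 13.5 and 29.7 CPM in EU (log2 fold change -3.97 ± 0.70, adjusted p = 0.0075, edgeR). The TRAP libraries were all below the EU libraries, while its paralog Eef1a1 overlapped, at 3204, 2081 and 1723 CPM in TRAP and 1699, 1620.0 and 3207 CPM in EU (0.10 ± 0.43). With the GC trend removed Eef1a2 was at -3.96 (adjusted p = 0.0086), almost the same value. Eif4ebp2 stood at 19.8, 49.1 and 50.4 CPM in TRAP and at 101, 157 and 86.8 CPM in EU (-1.54 ± 0.44, adjusted p = 0.04).

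Higher in TRAP at P14 were Eif3e, at 45.1, 27.6 and 21.5 CPM in TRAP and 1.16, 0.422 and 5.48 CPM in EU (log2 fold change 3.75 ± 0.87, adjusted p = 0.019, edgeR), and Eif4g2, at 318, 105 and 169 CPM in TRAP and 7.92, 3.14 and 40.6 CPM in EU (3.52 ± 0.84, adjusted p = 0.021). Eif2s1 stood at 36, 25.9 and 34.1 CPM in TRAP and 7.75, 2.82 and 3.82 CPM in EU (2.74 ± 0.55, adjusted p = 0.012). Eif1a (3.33 ± 0.61, adjusted p = 0.0088) and Eif2s3x (1.78 ± 0.43, adjusted p = 0.023) completed the calls. All 5 are among the A- and T-rich members, whose median log2 fold change (21 members under 46% GC) was 1.21, against -0.14 for the 16 members of 54% GC or more. With the trend removed, Eif3e (3.31), Eif4g2 (3.03), Eif1a (2.41) and Eif2s1 (1.77) still passed, and Eif2s3x did not (adjusted p = 0.083). The EU libraries did not hold together for these genes, replicate 5 lying above replicates 3 and 4 for Eif3e and Eif4g2. Without that library 16 members were called, and with all 5 P14 SC libraries of each method, replicates 1 and 2 included, 0 were.

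The translocase Eef2 did not pass at P14, at 1872, 2764 and 2004 CPM in TRAP and 2179, 2759.6 and 1682 CPM in EU (0.0 ± 0.38, adjusted p = 0.99, edgeR), and Eef1b2 (-0.08 ± 0.32), Eef1d (0.40 ± 0.41), Eef1g (-0.36 ± 0.34) and Eef2k (0.16 ± 0.39) were within 1 log2 unit of 0. Eif4e (3.20 ± 1.0, adjusted p = 0.055) and Eif4a2 (2.26 ± 0.76, adjusted p = 0.072) were near the threshold with overlapping libraries, and Eif4a1 (0.02 ± 0.45), Eif4g1 (0.67 ± 0.46) and Eif4g3 (-0.92 ± 0.35) did not pass. Removal of the GC trend added calls as well. Eif4e (2.65, adjusted p = 0.039, edgeR), Eif1b (1.0, adjusted p = 0.032) and Eif4e3 (-1.84, adjusted p = 0.03) passed only then. Eif4ebp1, Eif5a, Eif1, Eif3a and Eif2s3y had log2 fold changes of 1.28, -0.05, 0.90, 0.42 and 0.07, none of them called. The eIF2 kinases Eif2ak1, Eif2ak2, Eif2ak3 and Eif2ak4, at 0.27, 1.17, 1.17 and -0.71, did not pass either. Microglial markers summed to 654 to 1359 TPM in the TRAP libraries and to 271 to 353 TPM in the EU libraries, 3 of 9 tested being called higher, and their part in the members' values was not tested. Among partner genes, Dohh, which completes the hypusine of Eif5a, was higher in TRAP (2.09 ± 0.47), as were Etf1 (1.92 ± 0.46), Ppp1r15b (2.93 ± 0.85) and Nck1 (6.11 ± 0.91), and the S6 kinase Rps6kb2 was lower (-2.11 ± 0.49). By list, 2 of 15 cap and poly(A) genes, 1 of 8 hypusine and diphthamide genes, 1 of 23 mTORC1 genes, 2 of 8 stress genes and 1 of 9 termination genes were higher, and 1, 0, 3, 1 and 0 were lower.

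At P10, 9 of 65 members were higher in TRAP and 4 lower, that is 13.8% and 6.15% of the members. Of all 15733 genes, 6.38% were higher and 11.1% lower, 17.4% in all. The groups did not overlap for 35.4% of the members and 38.9% of all genes. Eif1ax, the X-linked eIF1A gene, stood at 127, 148 and 314 CPM in TRAP and at 19.6, 19.2 and 18.1 CPM in EU (log2 fold change 3.37 ± 0.44, adjusted p = 0.0023, edgeR). Its 3 EU libraries were within 2 CPM of each other and far below every TRAP library. Eef1akmt2, a lysine methyltransferase of eEF1A, stood at 14.3, 26.2 and 67.9 CPM and 3.87, 1.29 and 2.27 CPM (3.87 ± 0.71, adjusted p = 0.007). The helicase Eif4a2 stood at 97.2, 128 and 67.3 CPM and 16.6, 20.7 and 44 CPM (1.85 ± 0.46, adjusted p = 0.021), and Eif4g2 at 155, 135 and 112 CPM and 33, 45.3 and 69.8 CPM (1.44 ± 0.38, adjusted p = 0.027). The other higher calls were Eef1e1 (1.80), Eef1b2 (1.62), Eif3i (1.53), Eif1b (1.42) and Eif3m (1.30).

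Lower in TRAP at P10 were 2 of the 4 4E-binding proteins, a scaffold and a kinase. Eif4g3, the second eIF4G scaffold, stood at 65.5, 76.9 and 62 CPM in TRAP and at 238, 209.8 and 192 CPM in EU (log2 fold change -1.65 ± 0.32, adjusted p = 0.0085, edgeR). Its share of Eif4g1 plus Eif4g3 was 28.1% to 42.6% in TRAP and 45.2% to 58.4% in EU. Eif4ebp2 stood at 41, 33.6 and 26.7 CPM and 110.0, 80.1 and 86.4 CPM (-1.45 ± 0.35, adjusted p = 0.018). Eif4ebp2 was thus lower in TRAP in 3 of 3 libraries at each age, with no overlap at either. Eif2ak2, the kinase activated by double-stranded RNA, stood at 2.09, 4.97 and 0.151 CPM and 21.9, 15 and 24.8 CPM (-3.11 ± 0.92, adjusted p = 0.041). Eif4ebp3 stood at 0, 0.568 and 0 CPM and 9.28, 5.47 and 9.33 CPM (-5.53 ± 1.40, adjusted p = 0.023), and its fold is loosely bounded because 2 of the TRAP libraries were at 0. Eef1a2 was lower in every TRAP library, at 1.88, 1.56 and 0.604 CPM against 7.4, 9.55 and 4.14 CPM, without passing (-2.37 ± 0.77, adjusted p = 0.057).

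Of the genes with a set of values at both ages, Eef1a1 (0.03 ± 0.38), Eef2 (0.10 ± 0.39), Eef1g (-0.06 ± 0.36), Eef1d (-0.19 ± 0.42) and Eef2k (-0.38 ± 0.50) were not called at P10. Eif4e, Eif4a1, Eif4g1, Eif4ebp1, Eif5a and Eif1 had log2 fold changes of 0.71, -0.77, -0.80, 1.45, -0.34 and 0.79, none called. Eif2s1, Eif2s3x, Eif2s3y, Eif3a, Eif2ak1, Eif2ak3 and Eif2ak4, at 0.80, 1.21, -2.08, -0.59, -0.21, 1.64 and -0.51, were not called either. All 13 calls at P10 were also made with the GC trend removed, when 15 members were called. On the log2(TPM + 1) scale the split was 5 higher and 8 lower, with the median of all genes at -0.33. Without SC EU P10 replicate 1, 2 or 3 the count was 3, 4 or 6. Microglial markers were higher in TRAP at this age too, at 442 to 819 TPM against 238 to 328 TPM, and their part was not tested. By list, 3 of 15 cap and poly(A) genes, 2 of 8 hypusine and diphthamide genes, 3 of 23 mTORC1 genes, 2 of 8 stress genes and 1 of 9 termination genes were higher, and 1, 0, 2, 1 and 0 were lower. They included Paip1, which stimulates poly(A)-binding protein (4.28 ± 1.11), Rheb, the activator of mTORC1 (2.36 ± 0.44), Impact, an inhibitor of Eif2ak4 (2.27 ± 0.54), Dohh (2.18 ± 0.41) and Nck1 (3.15 ± 0.68).

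**Figure D4:**
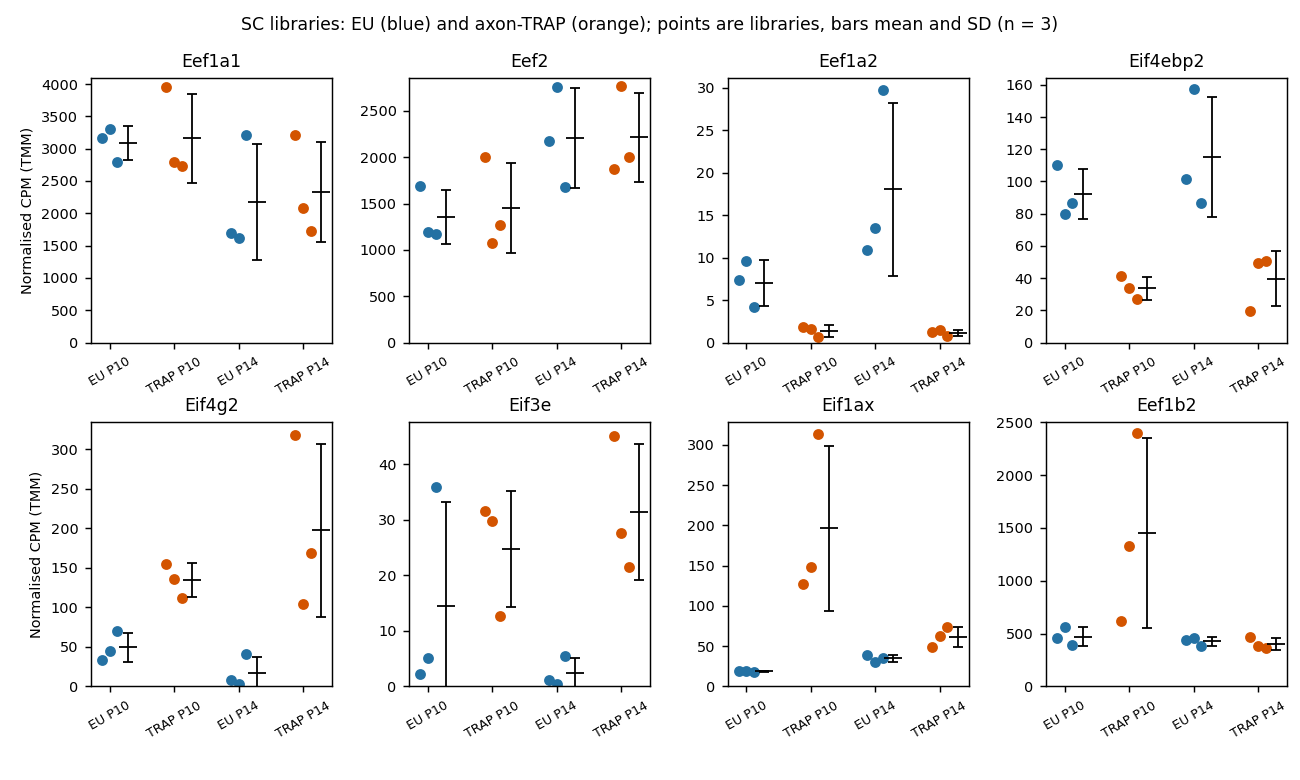
CPM of 8 members (vertical axes from 0, scaled within the fit of each age) in each SC library at P10 and P14 (replicates 3 to 5), EU in blue and TRAP in orange; points are libraries, and the bars give the mean and SD of 3. Eef1a2 and Eif4ebp2 lie lower in TRAP at both ages, Eif1ax lies 18.1 to 19.6 CPM in EU P10 and 127 to 314 CPM in TRAP P10.

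No member passed the test of whether the difference between methods itself changed with age. With capture method and age in 1 fit, 0 of 67 members and 0 of 18660 genes passed for the interaction in edgeR, and 13 members and 2051 genes had an unadjusted p under 0.05. For Eif1ax the method difference at P14 minus that at P10 was -2.59 on the log2 scale (adjusted p = 0.35).

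In the LGN, TRAP against EU, 0 of 66 members passed in edgeR (1.4% of all 16561 genes did), 10 had an unadjusted p under 0.05, and DESeq2 called 3. The share over all genes is not given for counts by unadjusted p or by DESeq2, here and below. Such counts are therefore not read as results about the members. With 3 and 2 libraries, Eif4h, the cofactor of the eIF4A helicases, stood at 914, 538 and 794 CPM in TRAP and at 212 and 137 CPM in EU (2.10 ± 0.64, adjusted p = 0.064). With the GC trend removed its log2 fold change was 0.83 (adjusted p = 0.47). SC against LGN gave 0 calls among 63 members in EU and among 66 in TRAP, 0 of them at an unadjusted p under 0.05 in either and 0 by DESeq2. No gene of the whole table passed in edgeR either (0% of 15448 in EU and 0% of 15551 in TRAP), with 2 libraries in the SC group of each.

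Across ages in EU-labelled SC RNA, P14 against P10, 1 of 65 members was lower, against 1.12% of all 16262 genes lower and 2.03% called in either direction. The member was Eif2s2, the eIF2 beta subunit, at 49.7, 68.9 and 43.2 CPM at P14 and 251, 98.7 and 184 CPM at P10 (-1.72 ± 0.38, adjusted p = 0.044, edgeR). The call ended with the GC trend removed (adjusted p = 0.21), without P14 replicate 3 or 4 and without P10 replicate 1 or 3, and without P14 replicate 5 the count of members was 10. In TRAP, 0 of 65 passed (0% of all 15752 genes), with 7 members at an unadjusted p under 0.05 and 2 called by DESeq2. From P14 to 8 weeks 0 of 66 passed (0% of 16942 genes), with 11 at an unadjusted p under 0.05 and 6 by DESeq2. The 8-week libraries were far apart: Eif3e stood at 85.7, 56.9 and 1.59 CPM in the 3 of them and at 1, 0.375 and 4.98 CPM at P14, and without 8-week replicate 3 the count of members called was 19.

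The chase asks which labelled RNA is still in the SC 4 d after P10. None of 66 members passed in edgeR, where 0.00597% of 16746 genes, a single gene, did. At an unadjusted p under 0.05 there were 16 members, and DESeq2 called 6, 2 higher and 4 lower. For these counts, too, the share over all genes is not given. Eif2s2 stood at 75.6, 84.1 and 100.1 CPM after the chase and at 299, 116 and 208 CPM at P10 (-1.26 ± 0.35, adjusted p = 0.16). Eif4a2 stood at 120.4, 95.9 and 58.3 CPM and 18.5, 23.7 and 49.2 CPM (1.58 ± 0.42, adjusted p = 0.16). For both genes the libraries of the 2 groups did not overlap, as for 39.4% of the members and 25.6% of all genes.

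The sarm1ko comparison held the most calls. Against SC EU P14, 6 of 66 members were higher and 22 lower in the axotomized sarm1ko libraries after a 7 d chase, that is 9.09% and 33.3% of the members. Of all 17171 genes, 16.8% were higher and 20.8% lower, 37.6% in all. The members' median log2 fold change was -0.59, against 0.15 over all genes. Among eIF3 genes 9 of 13 were lower and 1 higher (median -1.20), 3 of 5 eIF2B genes were lower, 3 of 7 elongation factors were lower, and 2 of 4 eIF2 kinases were higher. RGC markers were lower in 5 of 13 tested, with the list at 421 to 1600.5 TPM against 3735 to 5909 TPM. Markers of other cell types moved as well. Microglial markers were lower in 4 of 9, midbrain neuron markers in 3 of 8 and astrocyte markers in 2 of 8. Endothelial markers were lower in 4 of 8 and higher in 1, and oligodendrocyte markers lower in 3 of 10 and higher in 3. Mitochondrially encoded genes took 13.1 to 31.4% of counts against 0.407 to 1.76%. Without these genes and CT010467.1 the split was 6 higher and 23 lower. The part of the marker levels of these cell types in the members' values was not tested.

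Eif3g, the eIF3 subunit that binds RNA, stood at 22.5, 29.6 and 22.5 CPM in sarm1ko and at 138, 139 and 84.6 CPM in SC EU P14 (log2 fold change -2.28 ± 0.33, adjusted p = 0.0021, edgeR). Eif3l stood at 27, 28.9 and 14.8 CPM and 85, 138 and 63.3 CPM (-2.01 ± 0.40, adjusted p = 0.0051). Both eIF3 subunits were lower in 3 of 3 libraries. Eef2 stood at 397, 496 and 331 CPM and 1536, 1957 and 1159.6 CPM (-1.93 ± 0.34, adjusted p = 0.0034), and Eef1b2 at 82.5, 131 and 95.3 CPM and 312, 326 and 261 CPM (-1.54 ± 0.30, adjusted p = 0.0046). Eif4ebp2 stood at 19.2, 31 and 25.7 CPM and 71.5, 112 and 59.8 CPM (-1.68 ± 0.35, adjusted p = 0.0063). The further lower members with the largest changes were Eif3k (-2.12), Eef2kmt, a methyltransferase of Eef2 (-2.08), Eif3d (-1.97), Eif6, an anti-association factor of the large subunit (-1.97), Eif2b1 (-1.77), Eif3b (-1.73), Eif2b2 (-1.67) and Eif5a (-1.66). The other 9 lower calls lay between -1.65 for Eif2b4 and -0.83 for Eif3c.

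The 6 higher members were Eif3e, at 20.4, 22.5 and 15.1 CPM in sarm1ko and 0.816, 0.3 and 3.78 CPM in SC EU P14 (log2 fold change 3.57 ± 0.82, adjusted p = 0.009, edgeR), Eif4a2 (2.90), Eif2ak2 (2.59), Eif4g2 (2.26), Eif1a (1.88) and Eif2ak4 (1.69). Eif2ak4, the kinase that senses uncharged tRNA, stood at 22.5, 10.5 and 26.7 CPM and 5.56, 5.66 and 7.2 CPM (adjusted p = 0.019). With the GC trend removed 4 members were higher and 14 lower, 12 of them shared with the 28. Eif3g (-0.93), Eif3l (-1.52), Eif4ebp2 (-0.98), Eef1b2 (-2.47), Eif3e (2.23), Eif4a2 (1.84) and Eif2ak4 (1.95) were called in it. Eef2 moved to -0.42 (adjusted p = 0.18), Eif6 to -0.34 (adjusted p = 0.46) and Eif5a to -0.42 (adjusted p = 0.26). The removal thus took Eef2, Eif5a and Eif6 out of the calls while Eif3e, at the other end of base composition, stayed in. By scaling, the split was 8 higher and 22 lower with RLE factors and 4 and 24 on the log2(TPM + 1) scale. With all 5 SC EU P14 libraries 5 members were called, and without replicate 5 of that group 44; without sarm1ko replicate 1 or 3 the count was 14.

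**Figure D5:**
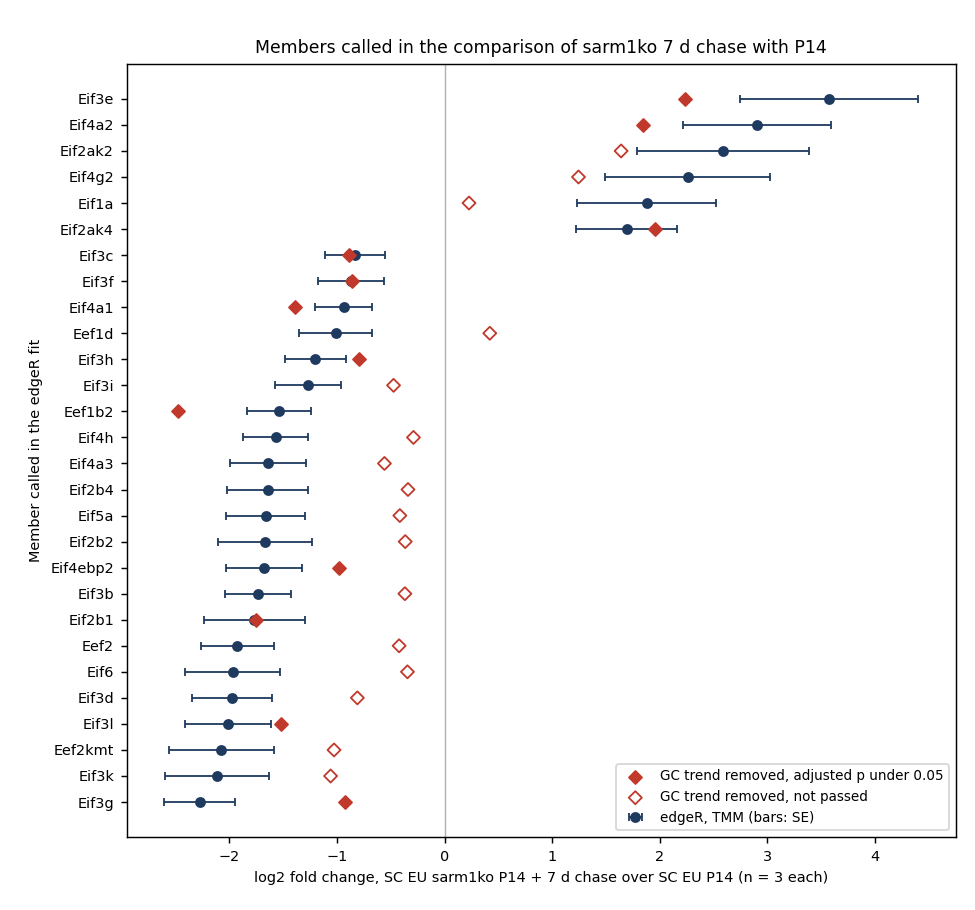
log2 fold change with its SE for the 28 members called in sarm1ko (P14 with 7 d chase, axotomized) against SC EU P14, and the value after the GC trend was removed (diamonds). The 22 lower members run from -2.28 (Eif3g) to -0.83 (Eif3c) and the 6 higher from 1.69 (Eif2ak4) to 3.57 (Eif3e), and Eef2 shifts from -1.93 to -0.42.

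Partner genes in sarm1ko against SC EU P14 were called higher in 4 of 15 cap and poly(A) genes, 1 of 8 hypusine and diphthamide genes, 2 of 23 mTORC1 genes, 1 of 8 stress genes and 1 of 9 termination genes, and lower in 2, 3, 10, 4 and 1. Of the 11 members reported with an oligopyrimidine tract, 5 were lower and 1 higher. Set against the 4 d chase from P10, which shares labelling and chase but differs in age, genotype, axotomy and chase length, 5 of 66 members were higher and 9 lower, or 7.58% and 13.6% of them. Of all 17991 genes, 9.86% were higher and 11.3% lower, 21.2% in all, a share equal to that of the members. Eif3f stood at 55.7, 99.8 and 72.6 CPM in sarm1ko and 186, 158 and 194 CPM after the 4 d chase (log2 fold change -1.23 ± 0.30, adjusted p = 0.01, edgeR). Eif5, which triggers GTP hydrolysis by eIF2, stood at 37.6, 42.5 and 52 CPM and 131, 83.7 and 84.7 CPM (-1.18 ± 0.29, adjusted p = 0.012). Eif3k (-1.40), Eif6 (-1.21), Eif2s2 (-1.20), Eef1b2 (-1.07), Eif3d (-1.02), Eif3g (-0.98) and Eif2b2 (-0.97) were the other lower ones. Eef1a2 stood at 23.2, 9.38 and 29.7 CPM and 1.5, 6.96 and 3.99 CPM (2.32 ± 0.55, adjusted p = 0.01). Eif4a2 (1.83), Eif2ak4 (2.02), Eif4e3 (1.06) and the helicase cofactor Eif4b (0.87) were higher too. Both comparisons share the sarm1ko libraries, so calls common to both are not independent. On the log2(TPM + 1) scale all 28 calls were lower and the median of all genes was -0.75, with limma. On that scale Eef1a2, Eif4a2 and Eif2ak4 were still above 0, at 1.04, 0.74 and 0.84, without passing (limma, adjusted p = 0.18, 0.4 and 0.26), and Eif4b and Eif4e3 changed sign, to -0.27 and -0.072. Without sarm1ko replicate 1 or 3 the count of members was 2, without chase replicate 1, 2 or 3 it was 24, 5 or 9.

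Among the libraries labelled fmr1ko, 0 of 65 members passed in EU, 0 of 65 in TRAP and 0 of 64 in FACS by edgeR, against 1.11%, 0% and 0.0593% of all genes (16546, 16115 and 15165 tested). At an unadjusted p under 0.05 there were 19, 7 and 11 members, and DESeq2 called 12, 1 and 8. Without the share over all genes under the same rules, these counts are not read as results about the members. In EU, Eif1a stood at 22, 24.4 and 6.44 CPM in the libraries labelled fmr1ko and at 2.28, 1.44 and 2.61 CPM in wild type (3.06 ± 0.64, adjusted p = 0.053). Eif3e stood at 21.6, 75.3 and 17.4 CPM and 0.989, 0.369 and 4.82 CPM (4.22 ± 0.99, adjusted p = 0.065), and was called with the GC trend removed (3.53, adjusted p = 0.036). Eef1a2 stood at 2.73, 3.62 and 4.74 CPM and 9.28, 11.8 and 26.1 CPM (-2.09 ± 0.57, adjusted p = 0.086). The 3 genes did not overlap between the groups, as for 30.8% of the members and 32.1% of all genes. Weighted GC content was 48.1 to 51.4% in the libraries labelled fmr1ko. Without SC EU P14 replicate 5, 16 members were called in EU, and without replicate 2 of the TRAP libraries labelled fmr1ko, the library with rod markers, 5 in TRAP.

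TRAP RNA of the SC was also set against the FACS-sorted cells of the eye at P14. Of 67 members, 8 were higher in TRAP and 8 lower, 11.9% each. Of all 17186 genes, 22.2% were higher and 22.4% lower, 44.5% in all. Eef2k stood at 27.8, 45.5 and 29.2 CPM in TRAP and at 0.021, 0.901 and 3.09 CPM in FACS (log2 fold change 4.68 ± 1.32, adjusted p = 0.024, edgeR). The haem-regulated kinase Eif2ak1 stood at 56.6, 69.4 and 64.3 CPM and 26.8, 22.8 and 16.6 CPM (1.52 ± 0.32, adjusted p = 0.0075), and Eef1b2 at 489, 399 and 370.1 CPM and 159.6, 112 and 187 CPM (1.46 ± 0.29, adjusted p = 0.0069). In all 3 the TRAP libraries lay above every FACS library. Eef1d (1.40), Eif3b (1.37), Eif4h (1.18), Eif1b (1.03) and Eif2b5 (0.94) were higher as well. Lower in TRAP was Eef2kmt, at 13.8, 18.4 and 13.3 CPM and 64.5, 89.7 and 79.4 CPM (-2.36 ± 0.31, adjusted p = 0.0017). Eif3e stood at 47.2, 29 and 22 CPM and 122, 117 and 153 CPM (-2.0 ± 0.35, adjusted p = 0.0046), and moved to -0.85 with the GC trend removed (adjusted p = 0.11). Eif3j2 was listed at 0 counts in all 3 TRAP libraries of this fit and at 7.24, 7.8 and 7.26 CPM in FACS. In these libraries it was at least 66.6-fold lower against a floor of 3 counts per library. In replicate 2 of SC TRAP P14, outside this fit, it stood at 110 counts and 3.29 TPM, near the 3.44 TPM of FACS replicate 3. The bound therefore does not extend to the whole TRAP group, and reads of this gene may be split with Eif3j1. Eef1akmt3 (-4.65), Eif1a (-1.59), Eif4g2 (-1.29), the exon junction helicase Eif4a3 (-1.20) and Eif4enif1, which carries Eif4e into the nucleus (-0.91), were lower too. The rod content of the FACS libraries stands beside these values. Other lists were higher in TRAP: oligodendrocyte markers in 10 of 10, microglial in 9 of 9 and astrocyte in 6 of 8. Midbrain neuron markers were higher in 5 of 8 (1 lower), and RGC markers in 12 of 15 (1 lower). The part of these cell types in the members' values was not tested. With RLE factors the split was 12 higher and 6 lower, and on the log2(TPM + 1) scale 10 and 6. Without TRAP replicate 4 or 5 the count was 10, and without FACS replicate 2 it was 9.

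Eif3e and Eif1a were each called in 4 comparisons and Eif4g2 in 5, and in the 3 of these with SC EU P14 all 3 genes were lower in that group. Eif3e stood at 59.4, 11.4, 1.16, 0.374 and 5.07 TPM in its replicates 1 to 5. In the other SC groups Eif3e stood at 1.83, 4.13 and 36.8 TPM (EU P10), 40.1, 18.9 and 13.1 TPM (4 d chase) and 16.5, 32.6 and 7.29 TPM (sarm1ko). The comparisons with SC EU P14 share its 3 libraries, and the low values of Eif3e in replicates 3 and 4 enter each of them. Calls made under every setting that was run, each library left out included, were Eif4g2, Eif3e, Eif3m and Eif1a in SC against immunopanned eye, Eif4g3, Eef1akmt2 and Eif1ax between TRAP and EU at P10, Eif4ebp2, Eif3l and Eif3g in sarm1ko against SC EU P14, and Eef2kmt, Eef1b2, Eif2ak1 and Eif3b between TRAP and FACS.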

How the data were processed

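Mouse RNA libraries (48) were prepared from captured or sorted RNA as amplified cDNA with the Nextera XT kit, per the labels' protocols. Salmon and the mm10 build are named in the submitters' processing notes; further steps: not given in the sources used here. Deposited estimated counts (expected counts) and deposited TPM values were used, both made by the authors per gene ID; 54097 of 54331 IDs matched a symbol in GENCODE M21. Estimated counts were rounded, and 16 comparisons were each fitted alone with edgeR 4.0.16 (R 4.3.3; filterByExpr, TMM, quasi-likelihood F test, Benjamini-Hochberg over all genes tested, adjusted p under 0.05). The SE is the log2 fold change divided by the square root of F. CPM values are scaled within each fit and are not compared across fits. Alternatives were RLE factors, no filter, DESeq2 1.42.0, limma 3.58.1 on log2(TPM + 1) (pseudocount 1, fold changes of low genes understated), leaving out CT010467.1 and mitochondrial genes, all 5 P14 SC libraries, a replicate block and each library left out. Removal of the GC trend (a smooth curve of log counts on the GC content of the transcript with the longest coding sequence) and the method-by-age interaction were added after seeing the data. Floors of 3 counts cover counting error only, while the SE also takes in the spread between libraries. Libraries pool animals, and nothing says that replicates are separate pools, so the p-values cover the spread between these libraries, which may be technical. Named genes were the members called, up to 12 per direction and comparison, 25 members given values in the 3 main comparisons whether called or not, up to 5 partner genes per comparison, and Fmr1 and Sarm1. Members, lists and tests were chosen with earlier results of these data known. Replicate numbers were not taken to pair the libraries: no label states a shared source, and in no comparison with 3 shared numbers did every same-numbered pair correlate above 0.1. Fits were tested on simulated counts.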

Additional observations from a re-analysis of the deposited data

Results flagged for a closer look

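In the P14 SC groups of 5 libraries, chosen members and the members' summed TPM were tested for a library far from the rest. In 9 of 52 tests the highest or lowest library was separated by more than 0.71 of the group's range (Dixon's criterion). Chance flags about 1 in 20 for independent normal values. These TPM values come from shared libraries and need not be normal, so that rate is only a rough guide. In SC EU P14, replicate 1 was highest for Eif4e (158.7 TPM, the others 0.332 to 44.0), Eif2s3x (85.1 TPM, the others 7.01 to 26.2), Eif2ak2 (20.2 TPM, the others 0.190 to 2.82) and Eif2ak4 (12.1 TPM, the others 3.11 to 3.93). Replicate 2 was highest for Eif4ebp1 (13.3 TPM, the others 1.18 to 4.23) and Eif2ak3 (6.72 TPM, the others 0 to 1.67), and replicate 5 for Eef1a2 (18.4 TPM, the others 4.14 to 8.03). In SC TRAP P14, replicate 2 was highest for Eef1b2 (3936 TPM, the others 593.6 to 1125) and lowest for Eif3a (24.1 TPM, the others 83.0 to 105). Of the 9, 8 lie in replicates 1 and 2, which carry another code series than replicates 3 to 5.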

How the results depend on the processing

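Depth limits the low members: several groups rest on 0 to 14 counts for Eef2k, Eif4ebp3 and Eif3j2. Over 154 named results and 2074 refits, 1622 kept their direction and side of the threshold, 337 lost the threshold, 36 gained it, 71 moved and 8 changed sign. The 8 were, in SC EU against immunopanned eye, Eif5 at 0.43 on the log2(TPM + 1) scale and, with the GC trend removed, Eif5 at 0.38, Eif1ax at 0.090 and Eif2s2 at 0.58; in sarm1ko against SC EU P14, Eef1d at 0.42 with the GC trend removed and Eif1a at -0.37 with all 5 P14 SC libraries; and, in sarm1ko against the 4 d chase, Eif4b at -0.27 and Eif4e3 at -0.072 on the log2(TPM + 1) scale. The cause was not tested.

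Counts of members called that moved by more than 1.5 times were as follows. Removing the GC trend gave 11 in place of 18 for SC against immunopanned eye, 18 in place of 28 for sarm1ko against SC EU P14, 0 in place of 1 for EU P14 against P10, and 1 in place of 0 for fmr1ko EU. DESeq2 gave 11 in place of 7 for TRAP against EU at P14, 3 in the LGN, 4 and 2 for P14 against P10 in EU and TRAP, 6 for 8 weeks, 6 for the chase, and 12, 1 and 8 for fmr1ko in EU, TRAP and FACS. Without the count filter there were 6 in the LGN, 4 and 3 for P14 against P10 in EU and TRAP, 7 for 8 weeks, 5 for the chase and 12 for fmr1ko EU. On the log2(TPM + 1) scale there were 2 in the LGN, 2 for fmr1ko EU and 28 for sarm1ko against the 4 d chase. With all 5 P14 SC libraries there were 0 for TRAP against EU at P14, 0 for EU P14 against P10 and 5 for sarm1ko against SC EU P14.

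With the replicate number as a block there were 4 in place of 13 for TRAP against EU at P10, 2 in place of 1 for EU P14 against P10, and 7 in place of 16 for TRAP against FACS; elsewhere the block kept the count within 1.5 times. The numbers are those of the titles, and in no comparison with 3 numbers did every same-numbered pair correlate above 0.1. In SC against LGN, with 2 shared numbers, the correlations were 0.391 and 0.391 in EU and 0.5 and 0.473 in TRAP. The deviations of 2 libraries from their group mean mirror each other, so the 2 pairs are not separate observations. In SC against LGN, 0 members were called with the block as without it.

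Leaving out 1 library at a time gave 5 to 21 members for SC against immunopanned eye, 3 to 16 for TRAP against EU at P14 (3 without TRAP replicate 3 or 5 or EU replicate 3), 3 to 15 at P10, 0 to 10 for EU P14 against P10, 0 to 1 for TRAP P14 against P10 (1 without P10 replicate 1), 0 to 19 for 8 weeks, 14 to 44 and 2 to 24 for sarm1ko against SC EU P14 and the 4 d chase, 0 to 16 and 0 to 5 for fmr1ko in EU and TRAP, and 9 to 14 for TRAP against FACS. It gave 0 throughout in the LGN, for SC against LGN, for the chase and for fmr1ko FACS; where a group was left with 1 library, that library is assumed to vary like the others.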

Other observations

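The immunopanned P14 libraries without EU, which entered no comparison, held the members unevenly. Eef1a1 stood at 40.04, 1023 and 881 TPM in replicates 1 to 3, Eef2 at 22.6, 99.5 and 152 TPM, Eif4a2 at 6.39, 132 and 105 TPM and Eif3e at 0.619, 102 and 104 TPM. Eef1a2 stood at 0.213, 0.232 and 0.0688 TPM and Eif2s3y at 0, 3.76 and 0 TPM. GC content weighted by TPM over all genes was 38.2% in replicate 1 and at most 53.3% in the others.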
